A study of Homo sapiens with 6 samples.

Results

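The 26S proteasome genes were read from a gene table of K562 cells. Members were every row whose symbol was PSMA, PSMB, PSMC, PSMD, PSME, PSMF or PSMG followed by a number, which gave 48 of the 57150 genes listed, each with 1 row. The filter on low values, an average of 1 FPKM or more over the columns, was passed by 46 of them. PSMA8, an alpha subunit of the testis, and PSMB11, a beta subunit of the thymus, were listed at 0 in both columns, where a count of 0 allows up to 3 counts in each column total (counting error only).

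K562 is a human erythroleukemia cell line. In the αCP1/2 siRNA group, 3 cell pools were co-depleted of the RNA-binding proteins αCP1 (PCBP1) and αCP2 (PCBP2), and 3 parallel pools received control siRNAs, with harvest 72 h after transfection. RNA was sequenced without strand information, and the groups share the line and the transfection procedure. The table holds 1 FPKM (fragments per kilobase of transcript, scaled to sequencing depth) and 1 estimated count per gene and group, so no value below has a replicate error, no difference was tested, and the intervals given are 95% exact binomial intervals that cover counting error only.

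The proteasome degrades proteins that carry ubiquitin chains. Its core particle is a barrel of stacked rings, with alpha subunits forming the gates and beta subunits forming the chamber, where PSMB6, PSMB7 and PSMB5 carry the active sites (caspase-like, trypsin-like and chymotrypsin-like). The regulatory particle has a base, with a ring of ATPases that unfolds substrates, and a lid that removes ubiquitin. Dedicated chaperones assemble these parts, and other caps can replace the regulatory particle. In cells exposed to interferon-γ, PSMB9, PSMB10 and PSMB8 are built into new cores in place of the constitutive catalytic subunits.

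The columns were set against their labels before any direction was drawn. PCBP1 was at 184 FPKM in the column labelled KD against 188 in the other, labelled CTRL (log2 ratio -0.03), and PCBP2 was at 531 and 342 (0.63), so the targeted mRNAs did not mark the KD column as depleted, and "KD" and "CTRL" below are only the columns' labels. Of 16 erythroid and K562 markers, 7, GATA1 and TAL1 among them, were at 0 in both columns and 9, those 7 included, were under 1 FPKM in both, with summed levels of 303 (KD) and 111 (CTRL) FPKM that came mainly from HBE1 and TFRC. The 7 epithelial markers summed to 4369.5 and 3189.5 FPKM, nearly all from KRT18, KRT8 and KRT7, while EPCAM was at 3.94 and 3.26, CDH1 under 1 and KRT19 at 0 in both columns, the 7 lymphoid and myeloid markers to 1.01 and 1.17, and the 4 fibroblast markers to 7.26 and 4.21. The part of these departures in the values below was not tested, and in bulk RNA fewer cells of a type and less RNA per cell cannot be told apart. The column totals were 13699340 (KD) and 11680567 (CTRL) estimated counts.

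Proteasome genes were abundant. Their median level stood at percentile 92.1 of the 13741 genes that passed the filter, and 35 of the 46 were at percentile 80 or above. They took 0.607% of all counts in the KD column and 0.682% in the CTRL column, and single members held from 32 to 5669 counts. FPKM is per transcript length, so the levels of genes that encode subunits of one ring can be set side by side. In the alpha ring the highest gene was 6.25-fold (KD) and 5.64-fold (CTRL) above the lowest, in the constitutive beta ring 6.39-fold and 7.07-fold, in the lid 5.81-fold and 3.24-fold, and in the base 22.4-fold and 14.2-fold. The base had the widest range of these parts. Among the assembly chaperones the range was 13.6-fold (KD) and 24.6-fold (CTRL), the latter wider than in the base.

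**Figure D1:**
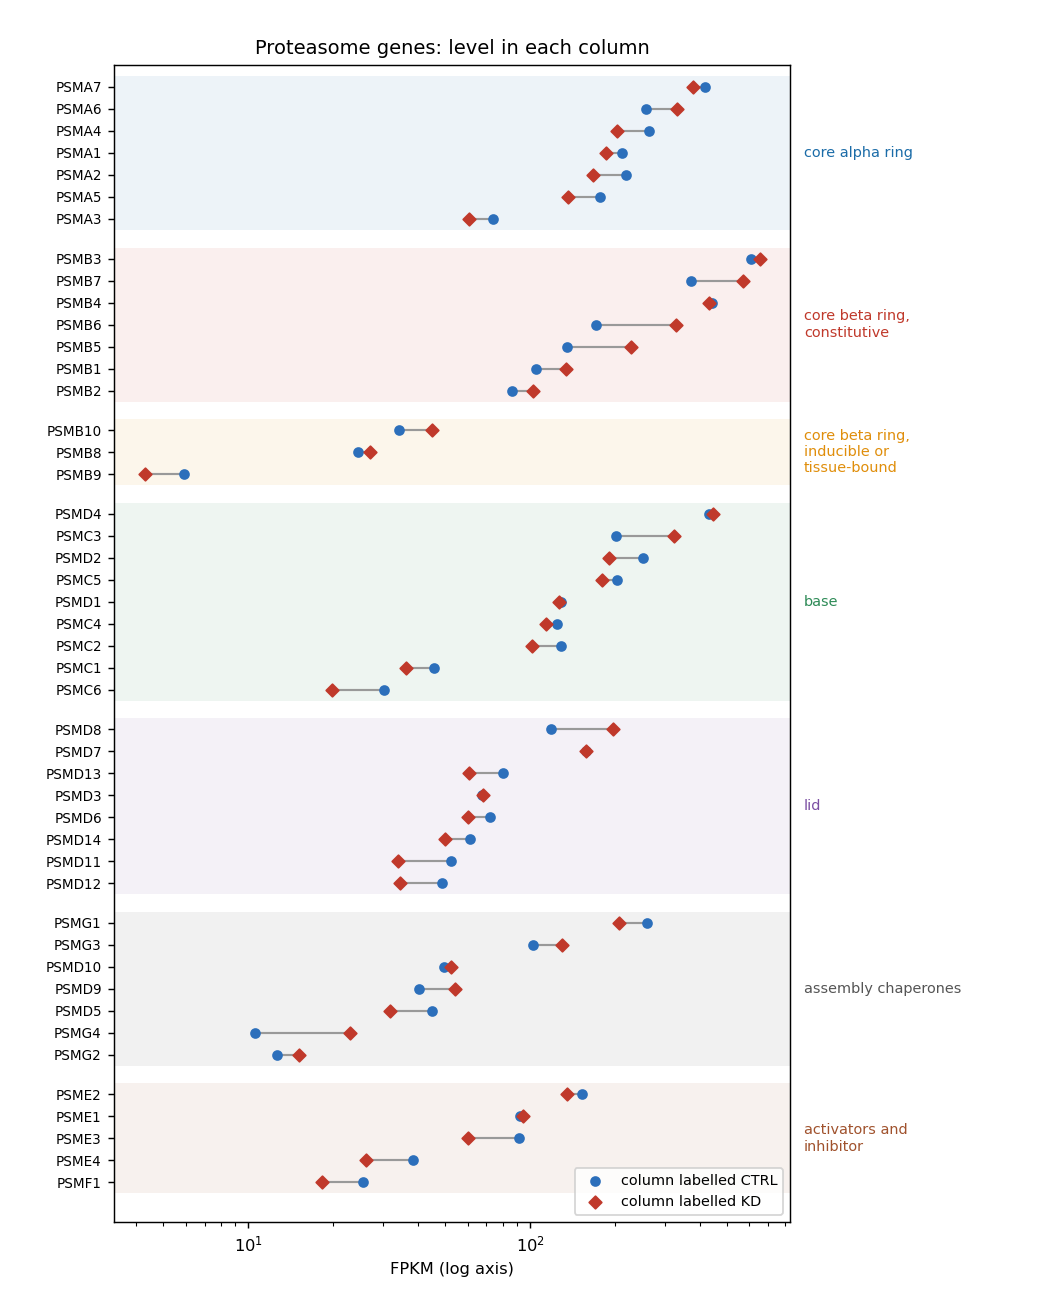
FPKM (log axis) of the 46 proteasome genes that passed the filter, grouped by part of the particle and ordered by mean level, with circles for the column labelled CTRL and diamonds for the column labelled KD. PSMB3 lies highest, at 653 and 609 FPKM, and PSMB9 lowest, at 4.31 (KD) and 5.90 (CTRL).

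The question was whether the proteasome genes moved as a unit between the columns. They did not differ in 1 direction: 20 had a log2 ratio (KD over CTRL, 1 added to each FPKM) above 0 and 26 below. Over all genes that passed, 51.1% were above 0. The median was -0.13 for the members against 0.01 over all genes that passed. The split was more uneven on other scalings, given below. A ratio of 1.5-fold or more was reached upward by 6 of 46 (13.04%), PSMB5, PSMB6, PSMB7, PSMC3, PSMD8 and PSMG4, beside 19.6% of all genes. It was reached downward by 2 of 46 (4.35%), PSMD11 and PSME3, beside 12.4% of all genes. Both shares were below the background. At 2-fold, 1 member was higher (PSMG4, background 8.51%) and 0 were lower (background 3.27%). Among genes averaging 10 FPKM or more, 45 were members, with 6 higher (background 22.0%) and 2 lower (background 9.46%).

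The threshold is at 0.58 on the log2 scale, and several members lie close to it. PSMB7 (0.61), PSMD11 (-0.61) and PSME3 (-0.60) were just past it, and PSMC6 (-0.58) and PSME4 (-0.53) fell just short.

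A pair of other scalings was applied to every gene. The count ratio is the ratio of each gene's share of the column total, taken relative to the median gene because count shares were lower in the KD column by a median of -0.21 (log2). By counts, the same 6 members were 1.5-fold or more higher (background 21.5%) and 2, PSME3 and PSME4, were lower (background 16.8%). The interval of the count ratio lay above the median gene for 14 members (background 33.1%), below it for 20 (background 31.3%), and included it for 12, where the abundance of the members makes their intervals narrow. With the trend in GC content and transcript length removed from the FPKM ratio, 3 members were higher, PSMB5, PSMB6 and PSMG4 (background 13.6%), and 0 were lower (background 11.1%). Of the members, 14 were then above 0 and 32 below, where 51.2% of all genes were above. Counts divided by the column totals without centring, where the median of all genes was -0.18, gave 2 higher (background 12.6%) and 8 lower (background 22.1%). On that scaling 12 members were above 0 and 34 below, where 38.2% of all genes were above. Over 3 scalings (FPKM, counts relative to the median gene, and FPKM with the trend removed) 12 members were above 0 in all, 24 were below 0 in all, and 10 changed sign. Such counts were not made over all genes, so these numbers have no background beside them. Statements below on all 3 scalings refer to the scalings named here.

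**Figure D2:**
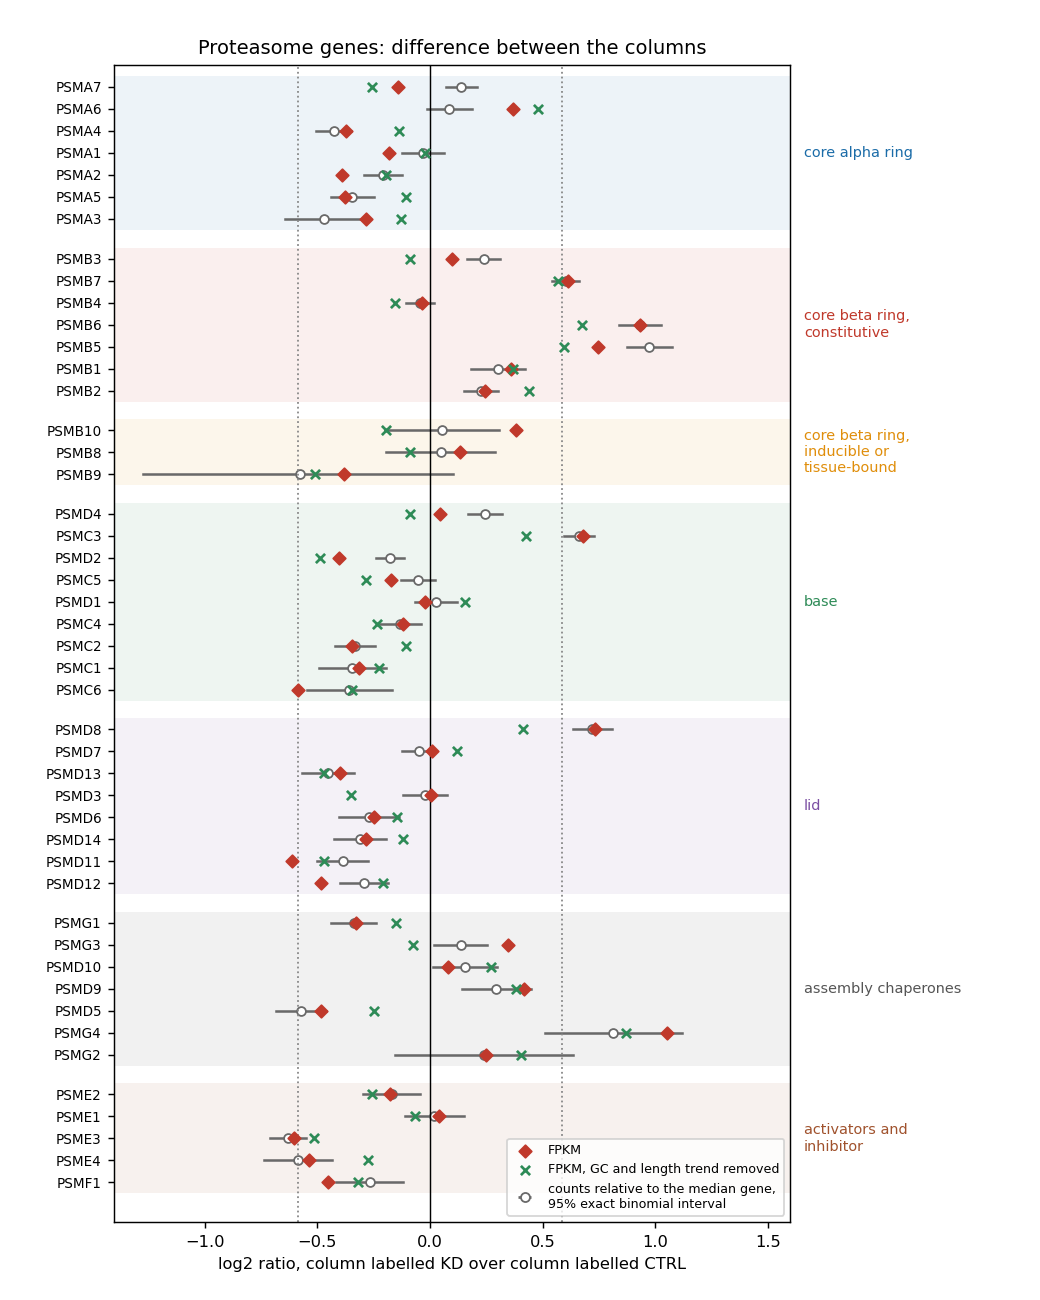
Log2 ratio of the KD over the CTRL column for the 46 members, as FPKM (diamonds), as counts relative to the median gene with 95% exact binomial intervals (circles and bars), and as FPKM with the GC and length trend removed (crosses). Dotted lines mark 1.5-fold. PSMB5, PSMB6 and PSMG4 lie past the upper line on all 3 scalings shown, whereas no member lies past the lower line on all of them.

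In the core particle the constitutive catalytic genes stood apart from their neighbours in level between the columns. PSMB6 (ENSG00000142507, chr17:4699439-4701797 of GRCh37, + strand), the caspase-like subunit, was at 328 FPKM and 2703 counts in the KD column and at 171 FPKM and 1395 counts in the CTRL column. The log2 ratio was 0.93 by FPKM and 0.93 by counts (interval 0.84 to 1.03). PSMB5 (ENSG00000100804, chr14:23485752-23504439, - strand), the chymotrypsin-like subunit, was at 228 and 135 FPKM with 2462 and 1234 counts, a log2 ratio of 0.75 by FPKM and 0.97 by counts (0.87 to 1.07). PSMB7 (ENSG00000136930, chr9:127115744-127177723, - strand), the trypsin-like subunit, was at 569.9 and 373 FPKM with 5669 and 3676 counts, a log2 ratio of 0.61 by FPKM and 0.60 by counts (0.54 to 0.66). All 3 catalytic genes were thus higher in the KD column, and the intervals of PSMB5 and PSMB6 overlapped each other and not that of PSMB7. With the GC and length trend removed they remained at 0.57 to 0.68.

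The 4 structural beta genes, which carry no active site, ranged lower, from -0.04 to 0.36 by FPKM and from -0.04 to 0.30 by counts. PSMB3, the most abundant member, was at 653 and 609 FPKM with 3366 and 2808 counts. The log2 ratio of PSMB3 was 0.10 by FPKM and 0.24 by counts (0.17 to 0.31) but -0.09 with the trend removed. PSMB2, the least abundant of the constitutive beta genes, was at 102 and 86.2 FPKM with 3253 and 2738 counts, a log2 ratio of 0.24 by FPKM and 0.23 by counts (0.15 to 0.30). PSMB1 stood at 0.36 and PSMB4 at -0.04. No structural beta gene reached the lowest catalytic value on any of the 3 scalings.

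The alpha ring went the other way. Of its 7 genes that passed the filter, 6 were below 0 and the median log2 ratio was -0.29, beside 0.36 for the constitutive beta ring. Median GC content also differed, at 41.4% (alpha) and 52.0% (constitutive beta). With the GC and length trend removed the medians were -0.13 (alpha) and 0.44 (constitutive beta), beside -0.12 for all members, so the alpha ring was then near the members as a set. PSMA7, the most abundant alpha gene, was at 378 and 417 FPKM with 3690 and 3299 counts, and its log2 ratio changed sign, from -0.14 by FPKM to 0.14 by counts (0.07 to 0.21). PSMA3, the least abundant, was at 60.5 and 73.9 FPKM with 488 and 666 counts, a log2 ratio of -0.29 by FPKM and -0.47 by counts (-0.64 to -0.30). PSMA6 was the alpha gene above 0, at 332 and 257 FPKM (0.37), although its counts, 1689 and 1566, gave 0.09 with an interval of -0.01 to 0.19. The other 4, PSMA1, PSMA2, PSMA4 and PSMA5, were between -0.39 and -0.18 by FPKM and below 0 on all 3 scalings. No alpha gene passed 1.5-fold on these scalings, whereas PSMA3 and PSMA4 did so downward by counts divided by column totals, uncentred.

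The inducible catalytic genes were low beside their constitutive partners and did not share their difference. PSMB8 (β5i, ENSG00000204264, chr6:32808494-32812456, - strand) was at 26.9 FPKM in the KD column and 24.4 in the CTRL column, with 292 and 278 counts. Its log2 ratio was 0.14 by FPKM and 0.05 by counts (-0.19 to 0.29). PSMB10 (β2i, ENSG00000205220, chr16:67968409-67970767, - strand) was at 45.0 and 34.4 FPKM with 270.3 and 256 counts, a log2 ratio of 0.38 by FPKM and 0.05 by counts (-0.20 to 0.31). Both were below 0 with the trend removed, at -0.09 and -0.19. PSMB9 (β1i, ENSG00000240065, chr6:32811913-32827628, + strand) was the least abundant member above the filter, at 4.31 and 5.90 FPKM with only 32 and 47 counts, a log2 ratio of -0.38 by FPKM and -0.58 by counts (-1.27 to 0.10). All 3 count intervals included the median gene, so no difference of the inducible genes from the median gene was detectable at this depth. Without centring, the interval of PSMB9 was -1.48 to -0.11.

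As a percent of each catalytic pair's summed FPKM, the inducible gene was lower in the KD column at every site. PSMB9 made up 1.30% of PSMB9 plus PSMB6 in the KD column and 3.33% in the CTRL column. By counts these were 1.17% (0.802% to 1.65%, of 2735 counts) and 3.26% (2.40% to 4.31%, of 1442 counts). PSMB8 made up 10.6% and 15.3% of its pair with PSMB5, and by counts 10.6% (9.48% to 11.8%, of 2754) and 18.4% (16.5% to 20.4%, of 1512). PSMB10 made up 7.32% and 8.44% of its pair with PSMB7, and by counts 4.55% (4.03% to 5.11%, of 5939) and 6.51% (5.76% to 7.33%, of 3932). The count intervals of the columns did not overlap at any of the 3 sites. At each site the constitutive partner had the larger log2 difference between the columns, by FPKM and by counts relative to the median gene. Without centring, this did not hold for PSMB9, at -0.78 from 32 and 47 counts, beside 0.72 for PSMB6.

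**Figure D3:**
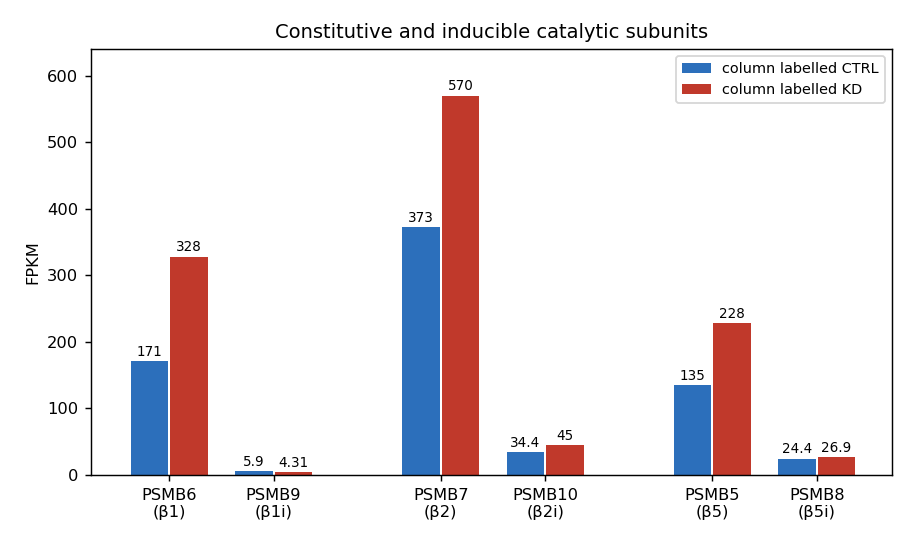
FPKM of the constitutive catalytic genes and their inducible counterparts (bars from 0, 1 value per column). PSMB6, PSMB7 and PSMB5 are taller in the column labelled KD (328, 569.9 and 228) than in the column labelled CTRL (171, 373 and 135), and the tallest inducible bar is that of PSMB10 in the KD column, at 45.0.

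The promoter windows of these genes show which members carry an element of the kind read by interferon-activated factors. RefSeq promoter windows (GRCh38.p14, 250 bases before to 50 after the start) were found for 42 of the 48 members, in 51 windows. PSMA7, PSMB1, PSMB6, PSMB7, PSMD4 and PSMG3 had no window. GAAA followed by any 2 bases and GAAA again, the core of the interferon-stimulated response element, was searched on both strands. It occurred in 7 of 51 member windows (13.7%) and in 3.57% of all 35116 windows. Below are 5 of these matches with 10 bases on each side, read along the gene's strand with the match in capitals; PSMB8, PSMB10, PSME1 and PSME2 are known interferon-responsive genes, and PSMG4 had the largest FPKM ratio of all members.
PSMB8, chr6:32844032-32844061: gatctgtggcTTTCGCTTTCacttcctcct
PSMB10, chr16:67936852-67936881: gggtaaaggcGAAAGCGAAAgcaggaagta
PSME1, chr14:24136189-24136218: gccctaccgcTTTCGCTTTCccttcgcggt
PSME2, chr14:24146619-24146648: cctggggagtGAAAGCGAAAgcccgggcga
PSMG4, chr6:3258904-3258933: ttccggggccGAAAGCGAAAgcgcgctcgg

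PSMB8 and PSME1 hold the motif as its reverse complement, and all 5 carry the same 10 letters. The other 2 matches were in PSMA4 and PSMB4. The window of PSMB9, the remaining inducible catalytic gene, held no match. Members with the letters lay on both sides of 0, 4 above and 3 below by FPKM, and of those above, PSMB8, PSMB10 and PSME1 fell below 0 with the trend removed. A match is a description of the letters and not evidence of a bound site.

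In the base, 7 of 9 genes were below 0 and the median log2 ratio was -0.17, with PSMC3 the exception past 1.5-fold. PSMC3 (ENSG00000165916, chr11:47440320-47448024, - strand), an ATPase of the unfolding ring, was at 325 FPKM and 4971 counts in the KD column and 203 FPKM and 3095 counts in the CTRL column. The log2 ratio of PSMC3 was 0.68 by FPKM, 0.66 by counts (0.60 to 0.73), and 0.43 with the trend removed. The other 5 ATPase genes, PSMC1, PSMC2, PSMC4, PSMC5 and PSMC6, were below 0 on all 3 scalings. PSMC6 (ENSG00000100519, chr14:53173896-53195308, + strand), the least abundant ATPase gene, was at 19.8 and 30.2 FPKM with 421 and 531 counts, a log2 ratio of -0.58 by FPKM and -0.36 by counts (-0.55 to -0.17). The ATPase ring thus held members on opposite sides of 0 between the columns.

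Among the base genes without ATPase activity, PSMD4, a ubiquitin receptor, was the most abundant, at 444 and 430 FPKM with 3250.0 and 2700.0 counts. Its log2 ratio was 0.05 by FPKM, 0.25 by counts (0.17 to 0.32) and -0.09 with the trend removed. PSMD2, a scaffold subunit, was at 190 and 251 FPKM, a log2 ratio of -0.40 by FPKM and -0.17 by counts (-0.24 to -0.11). PSMD1, the other scaffold, was at -0.02 by FPKM and 0.03 by counts, with an interval of -0.07 to 0.12.

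The level of PSMC1 may be mixed with that of a copy. PSMC1 (ENSG00000100764, chr14:90722871-90741773, + strand, 11 coding exons) was at 36.3 and 45.5 FPKM, whereas PSMC1P1, a processed pseudogene at chr3:68684856-68686175 in GRCh37, was at 139.6 and 184 FPKM, 3.84-fold (KD) and 4.04-fold (CTRL) above PSMC1. The pseudogene held 1995 counts beside 686 of PSMC1 in the KD column (74.4% of their sum) and 2620.0 beside 857 in the CTRL column (75.4%). The PSMC1 coding sequence of 1320 bases differs from this copy at 1 base, T885A counted from 1 at the A of the start codon, which turns codon 295 of 440 from TAT into the stop codon TAA. The 61 bases around it are shown because they hold the only difference in the coding sequence, which is in capitals.
PSMC1: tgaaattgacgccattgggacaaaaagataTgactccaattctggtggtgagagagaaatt
PSMC1P1: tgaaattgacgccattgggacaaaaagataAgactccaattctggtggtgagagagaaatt

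Of the 1221 windows of 100 bases in the coding sequence, 1121 (91.8%) are identical in gene and copy, so a single read of that length inside them has no unique origin. The mates of paired reads and bases outside the coding sequence were not part of this window count. Exons of NRDE2 on the opposite strand overlap 83.2% of the canonical PSMC1 exons, and the library did not keep strand. The canonical exons run to position 90741773, whereas the locus of the quantified PSMC1 row ends at 90738968. The 83.2% therefore includes bases outside that row, and the overlap within the row was not measured. The log2 ratio was -0.32 for PSMC1, -0.40 for PSMC1P1 and -0.38 for their summed 175.9 and 229 FPKM, all below 0. With the copy added, PSMC1 lay between PSMC4 (114 FPKM) and PSMC5 (180 FPKM) in the KD column. In the CTRL column it lay above PSMC5 (204 FPKM), the highest of the other ATPase genes.

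**Figure D4:**
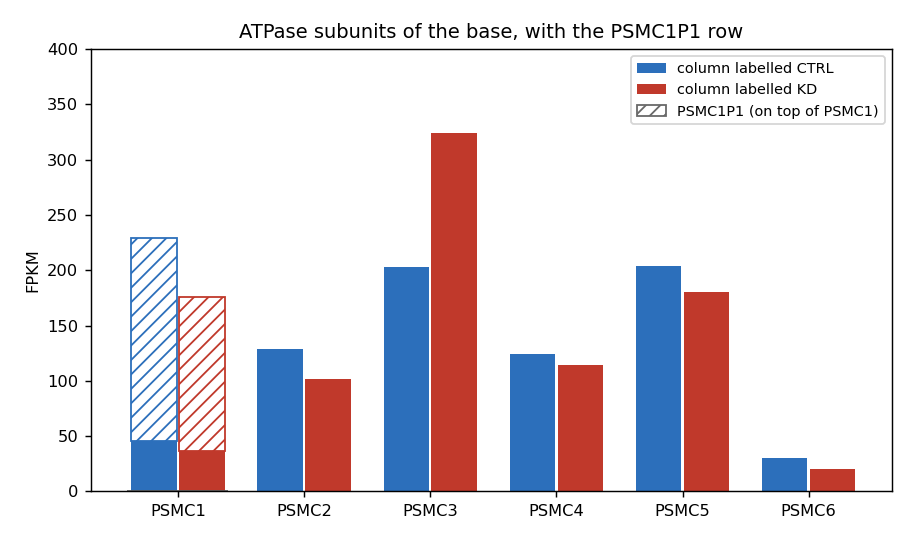
FPKM of the 6 ATPase genes of the base (bars from 0, 1 value per column), with the PSMC1P1 row hatched on top of PSMC1. PSMC3 is taller in the column labelled KD (325) than in the column labelled CTRL (203). PSMC1 reaches 175.9 and 229 FPKM with the copy and 36.3 and 45.5 without it.

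Other members had copies that took few reads. A search of the member coding sequences against the genome (at least 97% identity over at least 100 bases) found copies for 4 members, and none lay in another member. The full-length PSMC6 copy (98.3% identical) was at 1.21 and 3.24 FPKM, and PIPSL, which holds 97.8% of the PSMD4 coding sequence at 97.5% identity, was at 0.200 and 0.879 FPKM. Of 27 rows named as pseudogenes of members, 18 were at 0 in both columns. Exons of another gene overlapped 9 members, and for PSMA2 they covered 94.6% of the canonical exons on the same strand, with that row at a mean of 12.4 FPKM, so values of PSMA2 are uncertain to that extent. For PSMB10 the overlapped part was 38.3%, also on the same strand, by a row at 1.37 FPKM.

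In the lid, PSMD8 and PSMD11 were past 1.5-fold in opposite directions, and the median log2 ratio was -0.27. PSMD8 (ENSG00000099341, chr19:38865203-38874490, + strand), a scaffold subunit of the lid and its most abundant gene, was at 197 FPKM and 2851 counts in the KD column and 118 FPKM and 1704 counts in the CTRL column. For PSMD8 the log2 ratio was 0.73 by FPKM, 0.72 by counts (0.63 to 0.81) and 0.41 with the trend removed. PSMD11 (ENSG00000108671, chr17:30771397-30810337, + strand), a scaffold subunit known to raise proteasome assembly in stem cells, was at 34.0 and 52.5 FPKM with 1160 and 1494 counts. For PSMD11 the log2 ratio was -0.61 by FPKM, -0.39 by counts (-0.50 to -0.28) and -0.47 with the trend removed. PSMD12, the least abundant lid gene by mean FPKM, was at 34.4 and 48.6 FPKM with 1282 and 1545 counts, a log2 ratio of -0.49 by FPKM and -0.29 by counts (-0.40 to -0.18).

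The catalytic lid subunit PSMD14, the deubiquitinase that cuts ubiquitin chains from substrates, was at 49.96 and 61.1 FPKM, a log2 ratio of -0.28 by FPKM and -0.31 by counts (-0.42 to -0.19). PSMD6 and PSMD13 were also below 0 on all 3 scalings, at -0.25 and -0.40 by FPKM. PSMD7, the inactive partner of PSMD14, and PSMD3 were within 0.01 of 0 by FPKM and changed sign between scalings.

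Of the assembly chaperones 5 of 7 were above 0, with a median log2 ratio of 0.25 (-0.051 by counts divided by column totals, uncentred). PSMG1 and PSMG2 form a pair, as do PSMG3 and PSMG4, and both pairs guide assembly of the alpha ring. PSMG4 (ENSG00000180822, chr6:3231637-3303607, + strand) had the largest FPKM ratio of all members, though by counts PSMB5 and PSMB6 were higher. It was at 22.95 FPKM and 255 counts in the KD column and 10.55 FPKM and 143 counts in the CTRL column. The log2 ratio was 1.05 by FPKM, 0.81 by counts (0.51 to 1.12) and 0.87 with the trend removed. Its partner PSMG3 was at 130 and 102 FPKM with 1236 and 1107 counts, a log2 ratio of 0.35 by FPKM, 0.14 by counts (0.02 to 0.25) and -0.07 with the trend removed. The partners differed in level as well, since PSMG4 was the lowest assembly gene in the CTRL column.

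PSMG1, the most abundant assembly gene, was at 206 and 259 FPKM with 1459 and 1815 counts, a log2 ratio of -0.33 by FPKM and -0.34 by counts (-0.44 to -0.24). Its partner PSMG2 was at 15.2 and 12.6 FPKM with 121 and 101 counts, a log2 ratio of 0.25 by FPKM and 0.24 by counts, with an interval of -0.15 to 0.63 that included the median gene. PSMG1 was 13.6-fold above PSMG2 in the KD column, although their proteins act as a pair. Of the chaperones of the base, PSMD9 was at 0.42 and PSMD10 at 0.08, both above 0 on all 3 scalings, and PSMD5 was at -0.48 by FPKM and -0.57 by counts (-0.68 to -0.46).

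Of the activators and the inhibitor 4 of 5 were below 0, with a median log2 ratio of -0.45. PSME1 and PSME2 form the interferon-responsive cap PA28αβ. PSME1 was at 94.4 and 91.9 FPKM with 967 and 940.0 counts, and its log2 ratio was 0.04 by FPKM and 0.02 by counts (-0.11 to 0.15) and -0.07 with the trend removed. PSME2, the most abundant of the 5, was at 135 and 153 FPKM with 980.0 and 1085 counts, a log2 ratio of -0.18 by FPKM and -0.17 by counts (-0.30 to -0.04). The PA28αβ genes stayed closer to 0 than the remaining 3, although with the trend removed PSME2 (-0.26) was nearly level with PSME4 (-0.27).

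PSME3 (ENSG00000131467, chr17:40976402-40995777, + strand), the nuclear cap PA28γ, was at 60.0 FPKM and 2180.0 counts in the KD column and 91.5 FPKM and 3319 counts in the CTRL column. Its log2 ratio was -0.60 by FPKM, -0.63 by counts (-0.71 to -0.55) and -0.51 with the trend removed, the last short of 1.5-fold. PSME4, the nuclear cap PA200, was at 26.2 and 38.4 FPKM with 612 and 904 counts, a log2 ratio of -0.53 by FPKM and -0.59 by counts (-0.74 to -0.44). PSMF1, an inhibitor of the core particle and the least abundant of the 5, was at 18.3 and 25.4 FPKM with 680.0 and 806 counts, a log2 ratio of -0.45 by FPKM and -0.27 by counts (-0.42 to -0.12). All 3 were lower in the KD column on all 3 scalings.

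Base composition moved with the ratios. Over all 13205 genes with a transcript in the annotation, GC content and log2 ratio had a Spearman rho of 0.46, and over the 46 members 0.56, a correlation across genes of the same columns that are not independent. All 6 members past 1.5-fold upward were among the 23 with the higher GC content (48.6% to 61.7%), of which 14 were above 0. Both members past 1.5-fold downward were among the 23 with the lower GC content (36.4% to 48.4%), of which 17 were below 0. Transcript length had a rho of -0.58 with the ratio over members. After the trend was removed the rho over members was 0.10 for GC content and -0.36 for length, and PSMB7 (0.57), PSMC3 (0.43) and PSMD8 (0.41) no longer reached 1.5-fold.

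**Figure D5:**
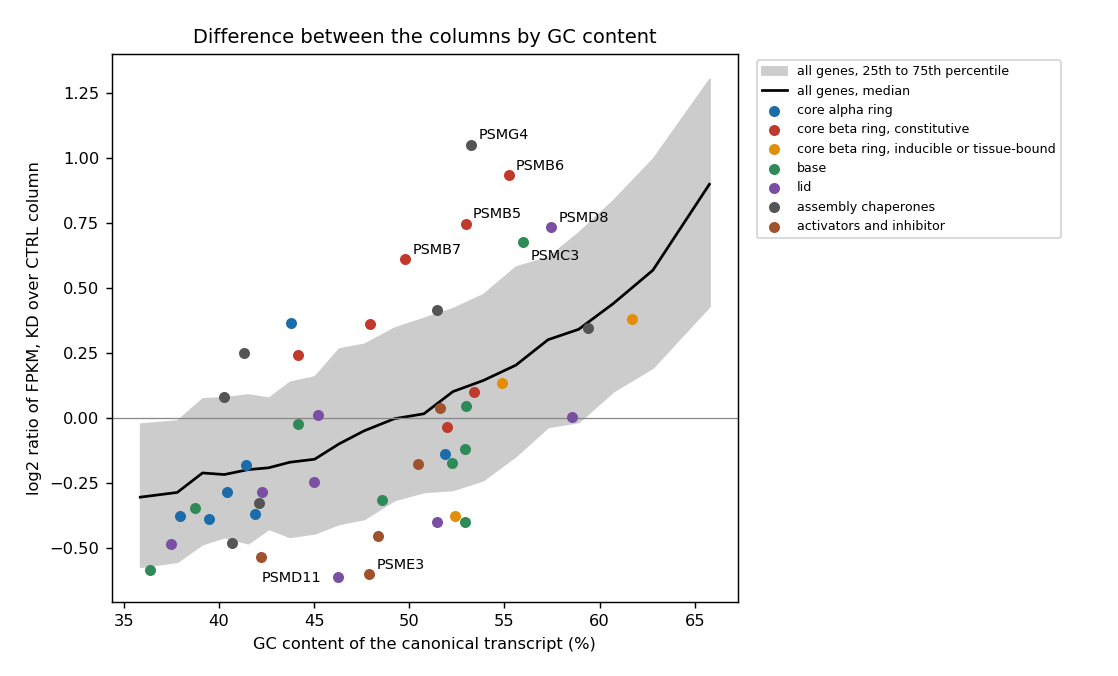
Log2 ratio of FPKM (KD over CTRL column) against the GC content of the canonical transcript, with the median of all genes in 20 equal-sized GC bins (line), their 25th to 75th percentiles (grey) and the 46 members coloured by part of the particle. The line climbs with GC content, and 12 of the 46 members lie above the 75th percentile of their GC bin, all 6 that were past 1.5-fold upward among them. By definition about 25% of all genes lie above that percentile, so the count of members is near the background.

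Promoter letters of 2 further kinds were counted. TGACNNNGC, the core of the antioxidant response element read by NFE2L1 and NFE2L2, was present in 15 of 51 member windows (29.4%) and in 13.3% of all windows on both strands. The 15 members that held it lay on both sides of 0 by FPKM. They were 5 of the 15 members with a window above 0 and 10 of the 25 below. CCAAT, the letters read by the factor NF-Y, was present in 20 of 51 member windows (39.2%) and in 34.6% of all windows. Of the members past 1.5-fold, PSMB5, PSMC3, PSMD8 and PSME3 held it and PSMG4 and PSMD11 did not. No window was available for PSMB6 and PSMB7.

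Other genes of the pathway went in both directions. Of 34 listed symbols 31 were in the table, all of which passed the filter, and 5 were 1.5-fold or more higher (background 19.6%) and 5 lower (background 12.4%) in the KD column, with 12 above and 19 below 0 and a median log2 ratio of -0.09. NFE2L1, the factor that raises proteasome gene transcription when proteasome activity falls, was at 36.9 and 18.7 FPKM (0.94). UBA1, the ubiquitin-activating enzyme, was at 174 and 104 FPKM (0.74). ADRM1, a ubiquitin receptor of the base, was at 228 and 143 FPKM (0.67) but at 0.02 with the trend removed.

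Among the lower genes were UCHL5, a deubiquitinase of the base (27.1 and 43.3 FPKM, -0.66), KIAA0368, which ties core and regulatory particle together (25.1 and 40.1, -0.65), IPO9, an importin (28.7 and 44.9, -0.63), and UBQLN1, a shuttle (48.4 and 73.9, -0.60). POMP, the chaperone of the beta ring, was at 160.1 and 199 FPKM (-0.31). SHFM1, a small lid subunit, was at 776 and 786 FPKM (-0.02). UBB and RPS27A, which both encode ubiquitin and share its sequence, were at -0.49 and 0.10 by FPKM. By counts relative to the median gene UBB changed sign, at 0.19, and RPS27A was at 0.08.

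Of 24 interferon and antigen-processing genes 18 passed the filter, 3 being 1.5-fold or more higher (background 19.6%) and 4 lower (background 12.4%), with 5 above and 13 below 0 and a median log2 ratio of -0.19. The higher genes were ISG15 (86.4 and 27.2 FPKM, 1.63), IFI6 (15.9 and 7.89, 0.93) and HLA-E (69.8 and 40.0, 0.79). The lower genes were HLA-C (22.9 and 64.5, -1.45), IFIT3 (4.22 and 11.1, -1.21), OAS1 (31.1 and 54.0, -0.78) and IFIT1 (4.21 and 7.37, -0.68), with HLA genes uncertain because their sequences are alike. TAP1 and TAP2, which carry peptides made by the proteasome into the endoplasmic reticulum, were at 20.8 and 18.6 FPKM (0.15) and 10.6 and 10.8 FPKM (-0.03). IRF1, a transcription factor induced by interferon, was at 4.93 and 7.74 FPKM (-0.56).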

How the data were processed

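RNA from 3 αCP1/2 siRNA pools and 3 control pools was sequenced by the authors (TruSeq, unstranded), mapped with TopHat 1.4.1 to hg19 with Ensembl release 65 transcripts, and summarised with Cuffdiff 2.2.0. The deposited FPKM values and the deposited estimated counts have 1 value per gene and group. Whether and how the libraries were combined is not given in the sources used here. The authors' 3 comparison columns (p-value, FDR and log2 fold change) were not used. With no replicates no test was run, and count ratios have exact binomial 95% intervals.

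Log2 ratios used a pseudocount of 1 and a mean FPKM of at least 1. GC content and length came from canonical GENCODE 44 transcripts lifted to GRCh37 (13205 genes, 96.1% of those passing, 313 matched by symbol), and a quadratic trend was removed. Copies were searched with blastn 2.17.0, other steps used Python 3.11.15, pandas 2.3.3, scipy 1.17.1 and pysam 0.24.0, and the code was tested on simulated data. Catalytic, activator and assembly genes, the 4 highest and 4 lowest ratios and each part's extremes were named in full, and pathway genes past 1.5-fold by value, some of which are counted but not reported here. Members PSMC3, PSMA6, PSMC1, PSMD1, PSMD2 and PSMD14, other genes given with values, the promoter letters and the copies were chosen after their values were seen. The members and lists were chosen with earlier results of these data known. Alternatives were other pseudocounts, filters and scalings, summed rows and pseudogenes.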

Additional observations from a re-analysis of the deposited data

How the results depend on the processing

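No paired analysis was possible because each group is 1 column with 1 value per gene. For the same reason neither the fit with a replicate block nor leaving out each replicate was run. The median half-width of the counting interval over members was 0.10 (log2).

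Dividing counts by each column total, without centring, moved the members past 1.5-fold to 2 higher and 8 lower and the medians to -0.25 (members), -0.41 (alpha ring), 0.093 (constitutive beta), -0.15 (inducible beta), -0.34 (base), -0.48 (lid) and -0.051 (assembly), where the median of all genes is -0.18. Removing the GC and length trend gave 3 higher and 0 lower and medians of -0.13 (alpha ring), -0.19 (inducible beta) and -0.27 (activators). Counts relative to the median gene gave -0.27 for the activators, an alternative added after seeing the data. A pseudocount of 5 left 0 lower, and a pseudocount of 0.1 and centring on the median gene each gave 3 lower. A minimum of 5 FPKM in both columns, or of a mean of 10 (also added after seeing the data), gave 0.26 for the inducible genes. By estimated counts the inducible percent was 4.55 (KD) and 6.51 (CTRL) for PSMB10 and 18.4 (CTRL) for PSMB8. For the moved medians the cause was not tested. No member past 1.5-fold reversed under any alternative, and summing pseudogenes or rows of a symbol changed no count.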
